A study of Mus musculus with 11 samples.

Results

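The genes described here encode ion channels of 3 kinds and their partner subunits in the mouse brain: potassium channels (symbols beginning with Kcn), sodium channels (Scn) and calcium channels (Cacn), with Cacna1a and Cacna1g left out. A member is a probe set, a group of short probes for one transcript, that is paired with exactly 1 gene of such a symbol. There were 71 of them among the array's 12488 probe sets, and they named 59 of the 8252 genes that the array names singly. Potassium channel symbols gave 51 probe sets of 42 genes, sodium channel symbols 9 of 7 genes and calcium channel symbols 11 of 10 genes. The symbols take in more than voltage-gated channels: 15 probe sets belong to inward rectifiers (Kcnj) and 5 to leak channels (Kcnk), which have no voltage sensor, and Scnm1 encodes a protein of RNA splicing and no channel.

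Whole brains of 11 untreated mice, labelled C57BL/6J, were profiled with 1 array per mouse. Of these, 5 mice (2 male, 3 female, aged 7 to 9 weeks) were null mutants for β4, a subunit of nicotinic acetylcholine receptors, and 6 wild-type mice (4 male, 2 female, aged 6 to 9 weeks) came from the same litters as mutants. Null 1 and null 2 were the male null mice, and wild-type 3 and wild-type 5 the female wild-type mice. All null mice and wild-type 1 to 3 had animal numbers with the letters B4, and wild-type 4 to 6 had the letters LT. A null mutant lacks the subunit in every tissue, so the brain is not the only site of the mutation, and the disrupted gene itself was not analysed here.

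Voltage-gated channels are pore proteins that open when the membrane depolarises. Sodium channels carry the rising phase of the action potential, potassium channels end it and set how soon the next can follow, and calcium channels turn the spike into transmitter release and into signals to the nucleus. Accessory subunits (Kcnab, Kcne, Cacnb, Cacna2d) bind the pore proteins and set how many reach the membrane and how they gate. Nicotinic receptors, which are opened by acetylcholine, depolarise neurons and so act on the same membrane potential.

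The deposited signal is a linear MAS5 intensity. Values under 3.1, the 10th percentile of the table, were raised to it before log2 was taken. A probe set was tested when its mean log2 signal reached 4.69, a signal of 25.8. Of the members 37, for 32 genes, were tested: 27 of the 51 potassium, 4 of the 9 sodium and 6 of the 11 calcium channel probe sets. Differences are log2 values with their standard error (SE) from limma, with Benjamini-Hochberg adjustment over all 7453 tested probe sets and a threshold of 0.05. Levels of different probe sets cannot be set against each other.

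The 2 male null arrays stood apart from the other 9. Values without them rest on the females for genotype, and leaving them out turned the sign of the genotype difference for 16 of the 37 tested members. The ratio of 3′ to 5′ Gapdh control signal, a usual measure of RNA quality, was 0.859 and 0.798 on these arrays, 2.19 to 3.58 on the female null arrays and 3.57 to 5.92 on the wild-type arrays. For β-actin it was 1.53 and 1.33 against 2.89 to 5.45 on the other 9. A higher ratio means less 5′ signal for a given 3′ signal. The shortfall of 5′ signal was thus larger on the other 9 arrays than on the male null arrays. The male null arrays had median signals of 58.3 and 56.3, against 43.6 to 49.75. The summed signal of 8 neuron markers was 11061 to 11330 in male null, 9070 to 9863 in female null and 8103 to 10352 in wild-type brains, so the labelled tissue carried its defining markers. Microglia markers (7 of 7 on the array) summed to 2034 to 2337, 1421 to 1643 and 1498 to 1873 in the same groups. Their members went apart: 5 of 7 had a higher mean in male null than in wild-type brains, with C1qa at 454.1 against 157.5, and Ctss had 558.6 against 752.1. Cerebellum markers (7 of 9) summed to 3208 to 3612, 4302 to 4530 and 4060 to 4884. Choroid plexus markers (4 of 5) summed to 685 to 931, 1194 to 1425 and 999 to 1774, and erythroid markers (3 of 7) to 2411 to 2498, 4248 to 6481 and 2645 to 6862. Endothelium markers (8 of 8) summed to 976 to 1169, 853 to 979 and 994 to 1545, so the female null brains lay below every wild-type brain. Means were higher in male null than in wild-type brains for 6 of 8 neuron and 5 of 8 endothelium markers. The same held for 2 of 4 choroid plexus, 1 of 3 erythroid and 0 of 7 cerebellum markers. Snap25 had 5023.0 against 6025.0 and Ttr 657.0 against 1146.2, while Folr1 had 72.85 against 28.9. No marker of any list was at 0 on every array. The part of these differences in the channel results was not tested, and in whole brain fewer cells of a type and less RNA per cell cannot be told apart.

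The promoters of 3 genes whose genotype difference differed between the sexes are printed so that their upstream sequences can be read beside the values. The 3 did not move in the same direction. In males the difference was 2.58 for Kcnab2 102892_at, 1.44 for Kcnj9 98332_at and -0.85 for Kcnd2 99339_r_at. The other probe sets of Kcnj9 (-1.13) and Kcnd2 (1.71) had the opposite sign, and that of Kcnab2 had 0.38. Each printed sequence is the 250 bases before the first listed RefSeq start on build GRCm38.p6, 5′ to 3′ on the gene's strand. Kcnab2 is at chr4:152477550-152477799 (minus strand), Kcnd2 at chr6:21215096-21215345 (plus strand) and Kcnj9 at chr1:172329323-172329572 (minus strand). Capitals mark a GC box (GGGCGG, or CCGCCC on the other strand) in Kcnab2 and Kcnd2 and a TATA box (TATAAA) in Kcnj9.
Kcnab2: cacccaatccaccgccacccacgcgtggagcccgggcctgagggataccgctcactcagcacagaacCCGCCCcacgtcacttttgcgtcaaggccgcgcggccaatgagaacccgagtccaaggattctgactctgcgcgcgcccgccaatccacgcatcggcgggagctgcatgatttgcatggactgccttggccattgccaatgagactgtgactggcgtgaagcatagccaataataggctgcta
Kcnd2: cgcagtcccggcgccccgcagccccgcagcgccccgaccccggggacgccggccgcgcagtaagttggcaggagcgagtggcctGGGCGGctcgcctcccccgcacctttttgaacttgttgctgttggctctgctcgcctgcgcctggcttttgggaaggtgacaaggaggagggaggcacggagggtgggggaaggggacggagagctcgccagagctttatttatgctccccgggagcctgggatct
Kcnj9: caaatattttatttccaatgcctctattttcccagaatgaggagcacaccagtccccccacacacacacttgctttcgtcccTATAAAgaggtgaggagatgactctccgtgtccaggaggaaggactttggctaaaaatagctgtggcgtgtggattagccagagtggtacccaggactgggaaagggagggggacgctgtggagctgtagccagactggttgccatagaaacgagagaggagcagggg
The marked letters begin 183 bases before the start in Kcnab2, 166 in Kcnd2 and 168 in Kcnj9. The windows of Scn8a and Cacnb2, the other 2 genes of this group, lie inside the annotated genes and are not printed. In all, 59 promoters of 46 member genes were matched by gene identifier, and their 250-base windows had a median GC content of 58.8% against 52.4% for all 32851 promoters. A GC box on either strand was in 27 of the 59 (45.8%) against 32.7% of all promoters, and a TATA box in 1 (1.69%), that of Kcnj9, against 12.4%. The E box CACGTG was in 4 (6.78%) against 6.02%. Neither TTCAGCACC, a part of the site of the neuronal repressor REST, nor the cyclic AMP response element TGACGTCA was in any of the 59 windows, and these were in 0.301% and 1.55% of all promoters. These matches describe letters in a window and no more.

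Between null and wild-type brains, with sex as a covariate, none of the 37 tested channel probe sets passed (limma, 0 of 37), while 0.0268% of all tested probe sets did. At an unadjusted p under 0.05 there were 10 (27.0%), 8 with higher and 2 with lower means in null brains, against 23.1% of all probe sets (13.4% higher and 9.69% lower). Centring each array on its median made this 7 higher and 4 lower, against 6.66% and 21.1% of all probe sets. Without the male null brains 1 member did so, against 3.54%. The median log2 difference of the members was 0.04 and that of all tested probe sets 0.03. Positive differences were seen for 22 members and negative ones for 15, from -0.81 for Kcnd3 to 1.67 for Kcnj11. No member had all null brains above or all null brains below the wild-type brains, against 0.59% and 0.496% of all probe sets.

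**Figure D1:**
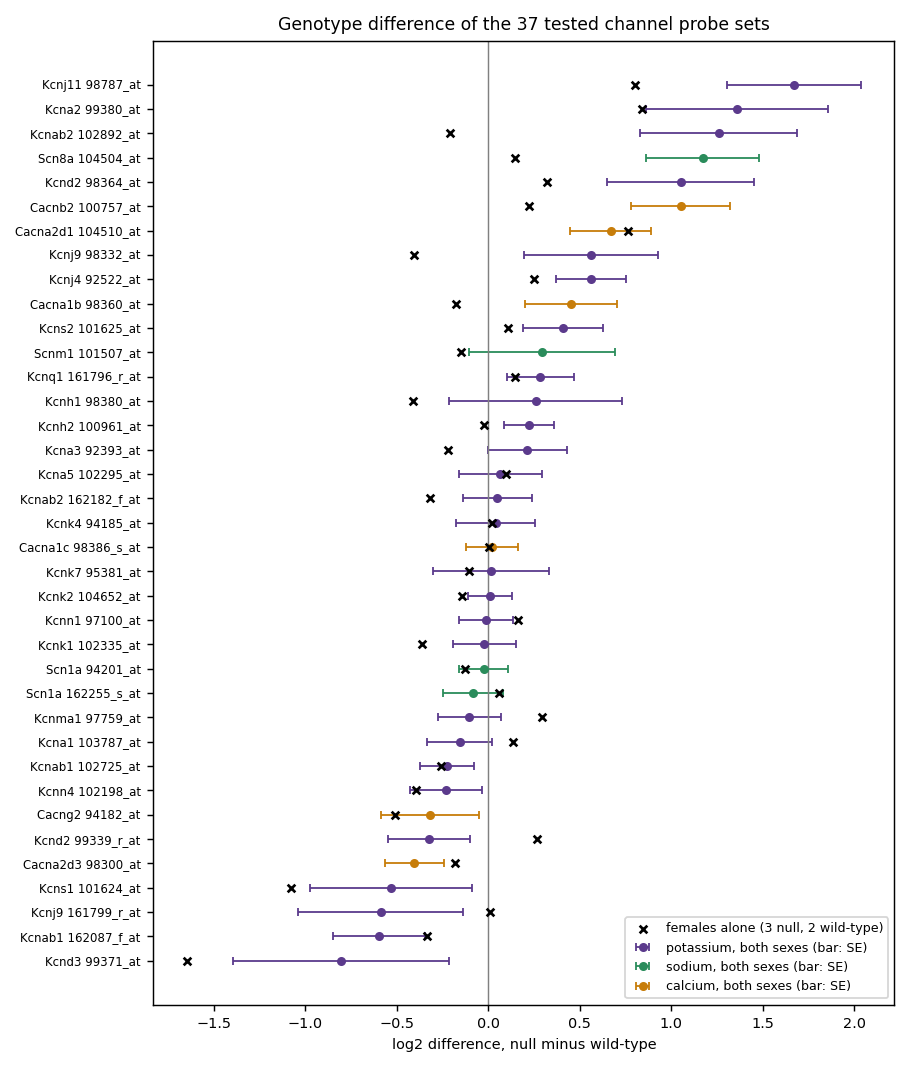
Each of the 37 tested channel probe sets is a line on the vertical axis, and the horizontal axis is the log2 difference, null minus wild-type. Circles, coloured by ion, give the difference over both sexes with its SE as a bar, and crosses give the difference in females alone (3 null, 2 wild-type). The circles run from -0.81 to 1.67, and for Kcnj11, Kcnab2 102892_at, Scn8a and Cacnb2 the cross lies well to the left of the circle.

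Among the potassium channels that form voltage-gated pores (Kcna, Kcnc, Kcnd and Kcns), 9 of 15 probe sets were tested. None passed, and differences ran from -0.81 to 1.36. Kcna2, a delayed rectifier of axons next to the nodes of Ranvier, ranged from 5.4 to 43.5 in wild-type brains with a median of 23.15. In null 1 to null 5 it was 81.0, 100.6, 22.7, 11.2 and 31.7. The male null brains lay above all others, and the female null brains lay inside the wild-type range. The difference was 1.36 (SE 0.50, limma adjusted p = 0.143), and 0.84 without the male null brains, a value that rests on 3 null against 2 wild-type females. Kcnd2, a fast A-type channel of dendrites, ranged from 11.6 to 48.6 by probe set 98364_at (median 30.85) in wild-type brains. The null values were 70.1, 122.1, 44.3, 35.1 and 36.7, again with the male null brains alone above the wild-type range. Its difference of 1.05 (SE 0.40, limma adjusted p = 0.154) was 0.32 without them.

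Kcns2 encodes a subunit that forms no channel alone and modifies Kcnb channels. Wild-type values ran from 33.2 to 48.1 with a median of 39.75, and null values were 66.3, 64.3, 50.1, 44.3 and 30.4. Here 3 of 5 null brains, the male pair and null 3, lay above all wild-type brains, and null 5 lay below them. The difference was 0.41 (SE 0.22, limma adjusted p = 0.274), and 0.11 without the male null brains. The remaining pore probe sets were closer to 0 or varied more. Differences were -0.16 for Kcna1 (wild-type brains at 379.9 ± 79.1, SD, n = 6, null brains at 330.2 ± 58.7, SD, n = 5), 0.21 for the lymphocyte and brain channel Kcna3, 0.07 for Kcna5, -0.53 for Kcns1 and -0.81 for Kcnd3. Without the male null brains these were 0.13 for Kcna1, -0.22 for Kcna3, 0.10 for Kcna5, -1.08 for Kcns1 and -1.65 for Kcnd3. Thus 2 signs turned and the other differences grew. The Kcnd3 values had the widest residual spread of all tested members, with an SD of 1.13 log2 after genotype and sex. Kcnh1 (ether-a-go-go, 0.26), Kcnh2 (the erg channel that repolarises the heart, 0.22) and Kcnq1 (161796_r_at, 0.28) also did not pass, and without the male null brains they had -0.41, -0.02 and 0.15.

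Of the accessory subunits of potassium channels, 4 of 7 probe sets, all of Kcnab1 or Kcnab2, were tested and none passed. Kcnab2, a β subunit of Kcna channels that resembles aldo-keto reductases, ranged from 96.9 to 380.6 in wild-type brains by probe set 102892_at (median 165.4). It stood at 751.2, 899.6, 209.0, 237.0 and 250.1 in null 1 to null 5. The male null values were each more than any other, while the female null values lay between the wild-type median and wild-type 5, the highest wild-type brain. The difference was 1.26 (SE 0.43, limma adjusted p = 0.125), and -0.21 without the male null brains. Kcnab1, whose β subunit speeds inactivation of Kcna channels, ran from 26.6 to 53.7 by 162087_f_at (median 41.3) in wild-type and was 23.0, 21.1, 30.6, 35.4 and 32.4 in null brains. The male null brains lay below all others, and the female null brains within the wild-type range. This difference was -0.60 (SE 0.25, limma adjusted p = 0.184), and -0.33 without the male null brains.

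The inward rectifiers hold the resting potential and let potassium in more easily than out. Only 4 of their 15 probe sets, for 3 of 11 genes, were tested, and none passed. Kcnj11, the pore of the ATP-sensitive channel that couples metabolism to excitability, had the smallest genotype p of all members. Its mean signal reached the level for testing through the male null brains, as did those of Kcna2 and Kcnh1: on the other 9 arrays their mean log2 signals were 4.48, 4.29 and 4.56. Its wild-type values ran from 12.8 to 27.2 with a median of 19.8, and the null values were 104.0, 119.1, 32.5, 19.8 and 42.4. Thus 4 of 5 null brains lay above all wild-type brains, among them 2 of the 3 females, and null 4 lay at the wild-type median. Wild-type brains averaged 19.9 ± 5.31 (SD, n = 6), and null brains averaged 63.6 ± 44.9 (SD, n = 5). The difference of 1.67 (SE 0.37) did not pass (limma adjusted p = 0.0773), and it was 0.80 without the male null brains (limma adjusted p = 0.999).

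Kcnj4, a strong rectifier of forebrain neurons, ranged from 67.8 to 129.1 in wild-type brains (median 89.45). Null brains had 186.4, 177.6, 89.7, 93.0 and 78.4, so that only the male null brains left the wild-type range. Its difference was 0.56 (SE 0.19, limma adjusted p = 0.124), 0.25 without the male null brains, and -0.07 when the 3 female null brains were set against all 6 wild-type brains with no covariate. Kcnj9, a subunit of channels opened by G proteins, had 0.56 by 98332_at and -0.59 by 161799_r_at, and both missed the threshold. Without the male null brains these were -0.41 and 0.0099.

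Leak channels (Kcnk) give neurons a steady potassium conductance, and their 4 tested probe sets had differences from -0.02 to 0.04, and from -0.36 to 0.02 without the male null brains. Kcnk2, which opens on stretch and heat, was among the steadiest of all members, with wild-type brains at 489 ± 62.2 (SD, n = 6), null brains at 502.2 ± 39.1 (SD, n = 5) and a residual SD of 0.15 log2. The channels opened by internal calcium or related to them (Kcnma1, Kcnn1 and Kcnn4) had differences from -0.23 to -0.01, and from -0.39 to 0.30 without them. Kcnn1, which makes the slow pause after spikes, averaged 106.6 ± 7.64 (SD, n = 6) and 109.2 ± 18.4 (SD, n = 5) in these groups, and its residual SD was 0.18. Neither family had a member at an unadjusted p under 0.05 for genotype.

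**Figure D2:**
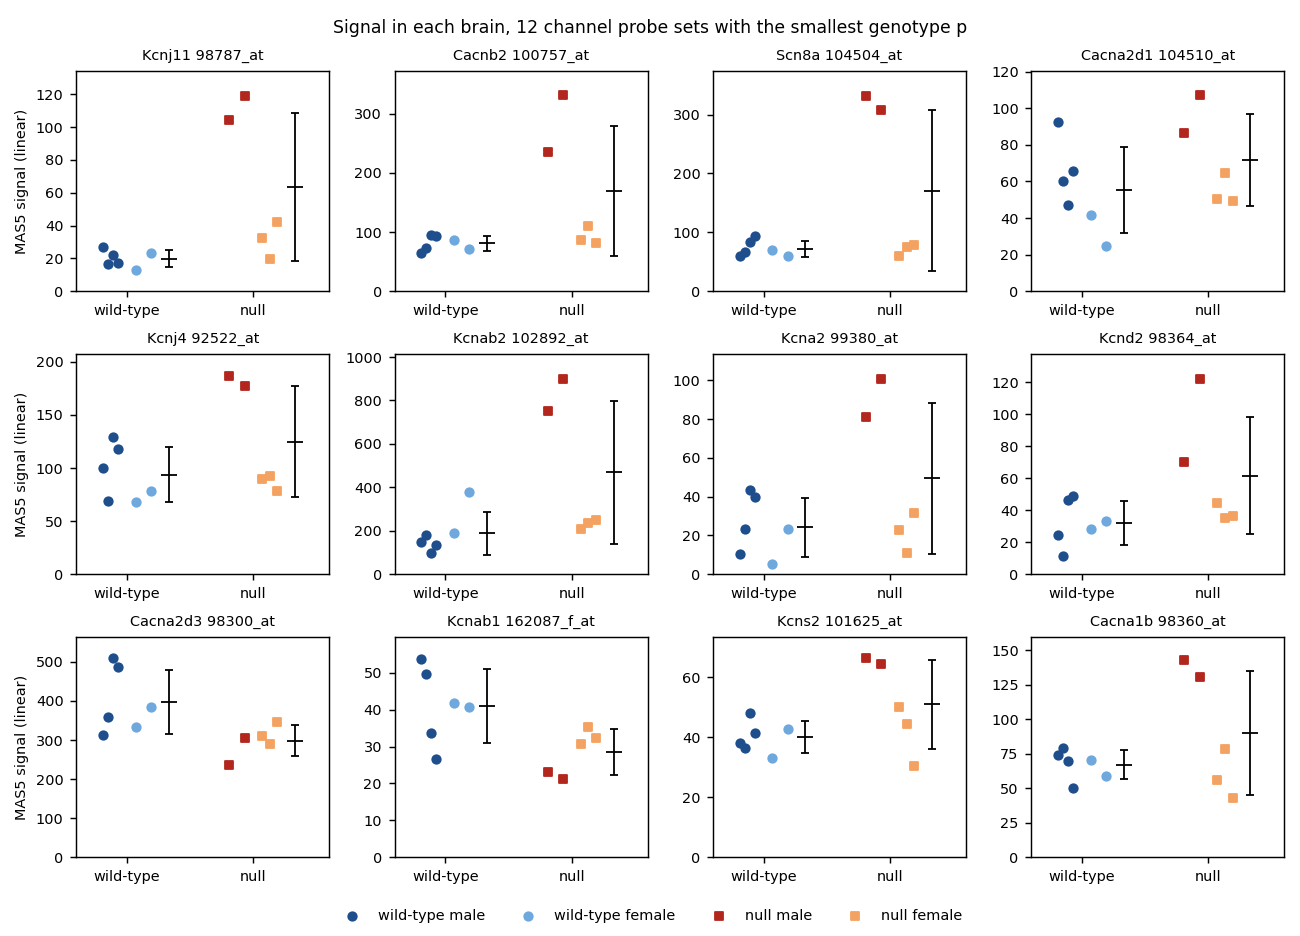
MAS5 signal (linear, vertical axis) of the 12 channel probe sets with the smallest genotype p in each of the 11 brains, wild-type on the left and null on the right of each panel. Circles are wild-type, squares null, darker shades male, and the black mark with its bar is the group mean ± SD (n = 6 and n = 5). In 9 of the 12 panels the male null brains lie above all others, and in that of Kcnab1 162087_f_at they lie below.

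Sodium channel symbols left 4 tested probe sets, 3 of pore subunits and that of Scnm1. Scn8a, the main sodium channel of the axon initial segment and the nodes in adults, ranged from 59.4 to 93.4 in wild-type brains (median 68.1) by 104504_at. It stood at 332.1, 307.5, 60.6, 75.6 and 78.2 in null 1 to null 5. The male null brains were far above the other 9, and the female null brains were inside the wild-type range. The difference was 1.17 (SE 0.31, limma adjusted p = 0.0922), and 0.15 without the male null brains. The other Scn8a probe set, 104505_at, lay under the floor of 3.1 on every array. Scn1a, the channel of inhibitory interneurons whose loss causes severe childhood epilepsy in people, differed little by either probe set. By 162255_s_at wild-type brains averaged 1078 ± 223.4 (SD, n = 6), and null brains averaged 1005 ± 135.9 (SD, n = 5). By 94201_at these means were 440.7 ± 75.9 (SD, n = 6) and 442.8 ± 42.8 (SD, n = 5). The differences were -0.08 and -0.02, and both turned positive after quantile normalization. Scnm1 had 0.29 (SE 0.40, limma adjusted p = 0.678), and -0.15 without the male null brains.

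Calcium channel symbols left 6 tested probe sets, of the pore genes Cacna1b and Cacna1c and of 4 accessory genes. Cacnb2, a cytoplasmic β subunit that brings pores to the membrane, ran from 64.2 to 95.0 in wild-type brains (median 79.85). In null 1 to null 5 it was 234.6, 331.3, 87.3, 109.5 and 81.6. Of the null brains, the male pair and null 4 lay above all wild-type brains. The difference was 1.05 (SE 0.27, limma adjusted p = 0.0873), and 0.22 without the male null brains. Cacna2d1, an extracellular subunit that binds gabapentin, ranged from 24.5 to 92.5 in wild-type brains (median 53.65) and was 86.5, 107.5, 50.2, 64.8 and 49.4 in null brains. Only null 2 left the wild-type range, and the lowest value was that of wild-type 5. Its difference was 0.67 (SE 0.22, limma adjusted p = 0.123) and 0.77 without the male null brains.

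Cacna2d3, a related subunit, had a lower mean in null brains. Wild-type brains ran from 312.3 to 508.8 (median 370.8), and null brains had 236.9, 305.0, 311.4, 290.8 and 344.9. All but null 5 lay below every wild-type brain. The difference was -0.40 (SE 0.16, limma adjusted p = 0.17), and -0.18 without the male null brains. Wild-type 4 to 6, with LT numbers, had 508.8, 383.6 and 487.0, all above the 312.3, 358.0 and 333.5 of wild-type 1 to 3. The difference was -0.18 with the number letters as a block, -0.22 with B4 numbers alone, -0.08 with age and -0.06 with the Gapdh ratio as a term. Cacna1b, the N-type pore of presynaptic terminals, ran from 50.3 to 79.2 (median 70.2) in wild-type and was 143.1, 130.5, 56.3, 78.2 and 42.7 in null brains. The male null brains lay above all others and null 5 below all others. Its difference of 0.45 (SE 0.25, limma adjusted p = 0.291) was -0.18 without the male null brains. Cacna1c, the L-type pore that signals to the nucleus, was even in all arrays with means of 149.6 ± 25.2 (SD, n = 6) and 149.4 ± 10.4 (SD, n = 5) and a difference of 0.02. Cacng2, stargazin, which carries AMPA receptors to synapses, had -0.32 (SE 0.27), -0.51 without the male null brains and 0.17 with the number letters as a block. That block turned the sign of 9 of the 37 members, among them Kcns1 (0.03) and Kcnh1 (-0.13).

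Single mice changed which members were called for genotype. Without wild-type 5, 5 members passed, all higher in null brains, when 11.8% of all probe sets did: Kcnj11 (2.01, limma adjusted p = 0.021), Kcnab2 102892_at (1.76, 0.0241), Scn8a (1.35, 0.0297), Cacnb2 (1.18, 0.0312) and Kcna2 (1.85, 0.0316). Without wild-type 3, Cacnb2 (1.28, limma adjusted p = 0.0454) and Scn8a (1.43, 0.0463) passed when 2.62% of all probe sets did. These are the 2 female wild-type mice. Of the members that passed, Kcnj11 and Kcna2 had reached the level for testing through the male null arrays, where they were high. Leaving out any other mouse gave 0 calls among the members. With B4 numbers alone, which leaves 3 wild-type brains, 0 of 37 passed against 0.349%. Comparing the 3 female null brains with all 6 wild-type brains gave 0 of 37 against 0.0134%, and a term for the Gapdh or the β-actin control ratio also gave 0.

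The genotype difference was then taken within each sex. In males, where 2 null were compared with 4 wild-type brains, 11 of 37 members passed (29.7%), against 32.6% of all probe sets. Of these 9 rose and 2 fell in null males, against 17.8% and 14.8% of all probe sets, and after centring on the array median 7 rose and 5 fell, against 10.3% and 26.9%. The rises were 2.58 for Kcnab2 102892_at, 2.45 for Kcnj11, 2.10 for Scn8a, 1.80 for Cacnb2, 1.71 for Kcnd2 98364_at, 1.44 for Kcnj9 98332_at, 1.02 for Cacna1b, 0.84 for Kcnj4 and 0.45 for Kcnh2, with limma adjusted p from 2.9e-05 to 0.0451. The falls were -0.85 for Kcnd2 99339_r_at and -0.60 for Cacna2d3. Kcnj11 had reached the level for testing through the male null arrays. With the filter set on the other 9 arrays, 10 of 34 members passed in males (29.4%), against 2395 of 7453 probe sets. With one of the male null brains left out, 5 (13.5%, without null 1) or 4 (10.8%, without null 2) passed, against 18% and 16.3% of all probe sets, where the lone male null brain is assumed to vary like the other groups. In females, 3 null against 2 wild-type brains, 0 of 37 passed by limma, as did 0% of all probe sets, and 1 member (Cacna2d1, 0.77) had an unadjusted p under 0.05, or 2.70% against 4.13%.

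The difference between the sexes was tested as an interaction, the difference in females minus that in males. It passed for 5 of 37 members (13.5%), against 15.9% of all probe sets, and the members' share was thus not above that of the array. It was negative for 4 of them and positive for 1, against 8.68% and 7.25% of all probe sets. After centring these were 4 and 2, against 5.55% and 12%. Kcnab2 102892_at had -2.79 (SE 0.40, limma adjusted p = 0.00135), from 2.58 in males to -0.21 in females. Scn8a had -1.95 (SE 0.31, limma adjusted p = 0.00229), from 2.10 to 0.15, and Cacnb2 had -1.57 (SE 0.33, limma adjusted p = 0.00797), from 1.80 to 0.22. Kcnj9 98332_at had -1.84 (SE 0.54, limma adjusted p = 0.0368), with null values of 169.2, 196.4, 53.6, 44.2 and 24.2 against a wild-type range of 40 to 106.3. Here the male null brains were above and null 5 was below all wild-type brains. Kcnd2 99339_r_at had 1.12 (SE 0.33, limma adjusted p = 0.0349), with null values of 201.5, 184.3, 305.4, 392.7 and 249.1 against 235.9 to 490.4. The male null brains were below all others there.

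These calls did not all stand without single mice. Kcnab2 and Scn8a passed with any 1 mouse left out, with adjusted p at most 0.0122 and 0.0171. Cacnb2 did not pass without null 2 (-1.32, limma adjusted p = 0.0588). Kcnd2 99339_r_at did not pass without null 1, null 2, null 3, null 4 or wild-type 5 (0.95 to 1.18, limma adjusted p from 0.0651 to 0.143). Kcnj9 98332_at did not pass without null 1, null 2, null 4, null 5, wild-type 1, wild-type 3, wild-type 5 or wild-type 6 (-2.05 to -1.51, limma adjusted p from 0.0504 to 0.149). The interaction rests on 2 male null brains, whose control ratios are given above, and sex cannot be told apart from what else sets those arrays apart.

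**Figure D3:**
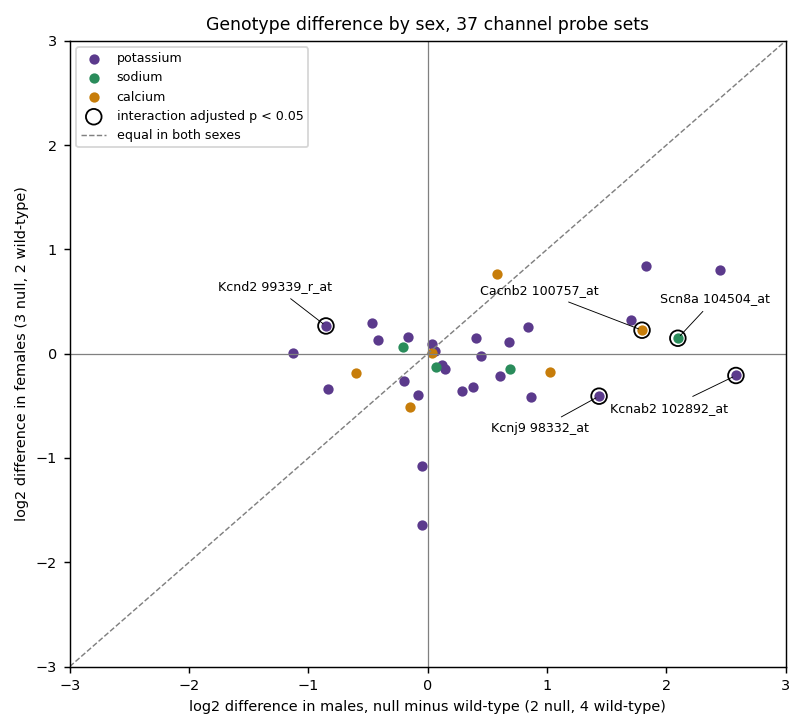
Log2 genotype difference in males (horizontal axis, 2 null and 4 wild-type) against that in females (vertical axis, 3 null and 2 wild-type) for the 37 tested channel probe sets, coloured by ion. Rings mark the 5 with an interaction past the threshold, and the dashed line marks equal differences. Kcnab2 102892_at, Scn8a, Cacnb2 and Kcnj9 98332_at lie far to the right at female differences between -0.41 and 0.22.

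Counted by rank alone, 13 of 37 members (35.1%) had both male null brains above the other 9, against 20.7% of all probe sets. These were Cacna1b, Cacnb2, Kcna2, Kcna3, Kcnab2 102892_at, Kcnd2 98364_at, Kcnh1, Kcnh2, Kcnj11, Kcnj4, Kcnj9 98332_at, Kcns2 and Scn8a. Both male null brains lay below the other 9 for 2 members (5.41%), Kcnab1 162087_f_at and Kcnd2 99339_r_at, against 16.5%. Ranks were taken on the deposited signals without centring, and the male null arrays had the highest median signals. Ranks after centring were not counted. The filter admitted Kcna2, Kcnh1 and Kcnj11 through the male null arrays. With the filter set on the other 9 arrays, 34 members were kept, of which 10 (29.4%) had both male null brains above the others, against 19.9% of all probe sets, and 2 (5.88%) had both below, against 16.6%. The 13 include pore and accessory subunits and inward rectifiers, and all 3 ions, with Scn8a the only sodium channel. No leak or calcium-activated potassium channel was among them. Only 4 and 3 probe sets of these were tested, too few to set them apart from the other members.

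Several genes were measured by more than 1 probe set, and these did not always move together. Kcnab2 differed between male null and male wild-type brains by 2.58 with 102892_at and by 0.38 with 162182_f_at (limma adjusted p = 0.204). The second probe set ran from 173.7 to 332.3 in wild-type brains and was 331.9, 260.3, 261.6, 251.0 and 222.4 in null brains, all within the wild-type range. Over both sexes it had 0.05, a sign that turned after centring (-0.13). Kcnd2 went up by 98364_at (1.71 in males) and down by 99339_r_at (-0.85), and both passed in males. For Kcnj9 the male differences were 1.44 by 98332_at and -1.13 by 161799_r_at (limma adjusted p = 0.172). Kcnab1 had -0.20 by 102725_at and -0.84 by 162087_f_at in males (limma adjusted p = 0.477 and 0.076). The suffixes _r and _f mark probe sets that the maker built under relaxed rules or that can bind related sequences. Where along the transcripts the probes lie was not used here.

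**Figure D4:**
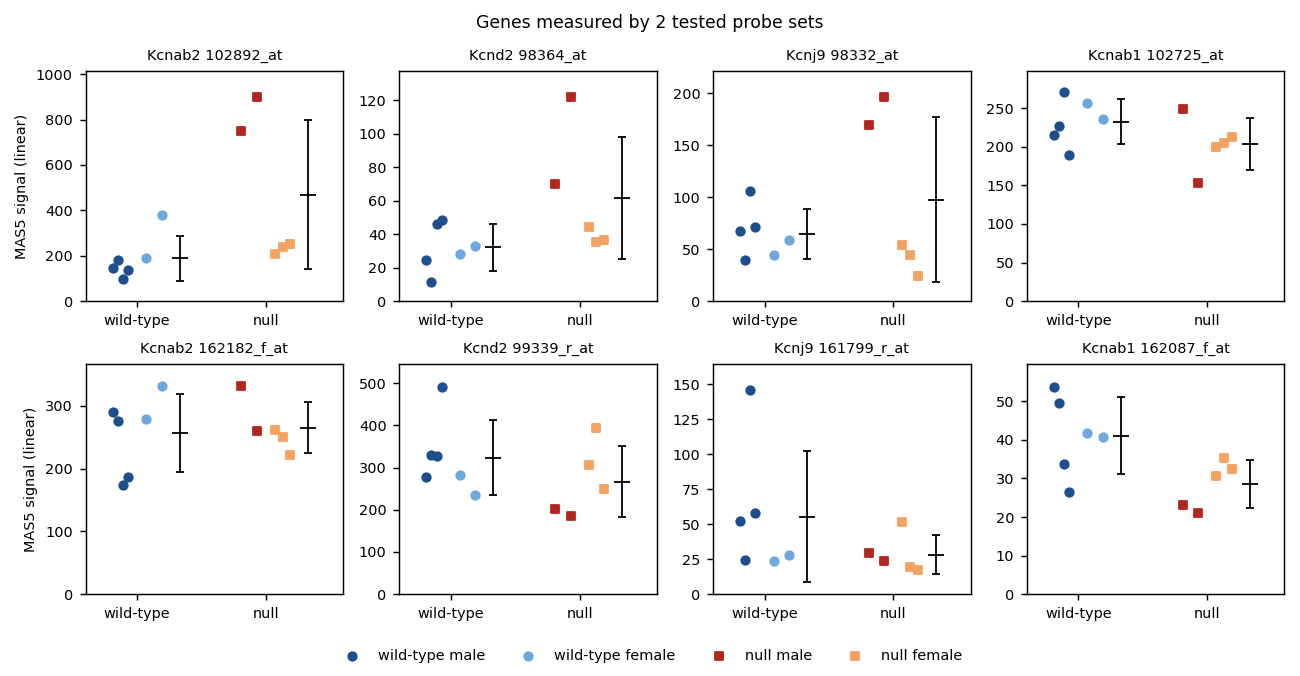
MAS5 signal (linear, vertical axis) of Kcnab2, Kcnd2, Kcnj9 and Kcnab1 in the 11 brains, with one probe set of each gene in the upper and the other in the lower row. Circles are wild-type, squares null, darker shades male, and the black mark with its bar is the group mean ± SD (n = 6 and n = 5). The male null brains are the 2 highest points for Kcnab2, Kcnd2 and Kcnj9 in the upper row, and not in the lower row.

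Between the sexes, with genotype as a covariate, 0 of 37 members passed (limma), as did 0% of all probe sets. At an unadjusted p under 0.05 there were 9 (24.3%), all with lower means in females, against 12.4% of all probe sets and 7.54% lower. Without the male null brains there were 3, of which 2 were higher in females, against 8.88% of all probe sets. After centring there were 9, 2 of them higher, against 1521 of 7453 probe sets (20.4%), 1299 of them higher. With the Gapdh ratio as a term there were 8, 3 of them higher, against 629 probe sets (8.44%), 303 of them higher. The median difference, female minus male, was -0.19 for the members and -0.01 for all probe sets. The smallest p values were those of Cacna2d1 (-0.92, SE 0.22), Kcnj4 (-0.76, SE 0.19), Scn8a (-1.14, SE 0.31), each with a limma adjusted p of 0.261, and Kcnj9 98332_at (-1.27, SE 0.37, limma adjusted p = 0.281). For Cacna2d1 male brains averaged 76.6 ± 22.7 (SD, n = 6), and female brains averaged 46.1 ± 14.7 (SD, n = 5), with overlap between the sexes. Male and female means were 130.2 ± 45.01 (SD, n = 6) and 81.5 ± 10.1 (SD, n = 5) for Kcnj4, and for Scn8a 157.2 ± 126.7 (SD, n = 6) and 68.6 ± 8.52 (SD, n = 5). Without the male null brains the differences were -1.01 for Cacna2d1, -0.48 for Kcnj4, -0.22 for Scn8a and -0.40 for Kcnj9 98332_at, and 0 members passed. No member separated all females from all males, against 0.201% of all probe sets in each direction. The genotype and the sex comparison use the same 11 arrays and are not independent.

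The members also differed in how much they varied. The residual SD after genotype and sex had a median of 0.35 log2 over the 37 members. It was smallest for Kcnk2 (0.15), Kcnn1 (0.18) and the L-type pore Cacna1c (0.19), and largest for Kcnd3 (1.13), Kcna2 (0.92) and Kcnh1 (0.87).

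The other 34 member probe sets, which leave 27 genes with no tested probe set, were too dim to test, with single values from 0.3 to 119.8. Of these, 22 had at least 1 array at the floor and 2, Kcnj15 99974_at and Scn8a 104505_at, lay at the floor on all arrays. Most inward rectifiers (11 of 15 probe sets) and most other sodium channel pores (Scn3a, Scn7a, Scn9a and Scn10a) fell in this group. The 3 member genes on chromosome 9, which also carries Chrnb4, were Kcnj1, Kcnj5 and Scn10a, and none of their 4 probe sets was bright enough to test. Both male null brains lay above all others for 6 of the 34 (17.6%), against 8.37% of all probe sets too dim to test. These were Cacna1e 100337_at, Kcna6, Kcnab3, Kcnc1, Kcnd1 and Scn9a. They lay below all others for 0, against 1.97%. Without the filter the interaction passed for 5 of 71 members (7.04%), against 7.49% of all probe sets, and the difference in males for 12 (16.9%), against 18%.

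Other genes that shape these currents were counted from a list of 49, of which 26 were on the array and 22, by 33 probe sets, were tested. It holds pacemaker channels (Hcn), chloride channels and exchangers (Clcn), ankyrins, contactins, calmodulins and scaffold proteins. For genotype 0 of 33 passed (limma), against 0.0268% of all probe sets, with a median of 0.01. At an unadjusted p under 0.05 there were 9 of 33, against 23.1% of all probe sets. For sex 0 of 33 passed (limma), against 0%, and 3 had an unadjusted p under 0.05, against 12.4%. For the interaction 11 of 33 passed (33.3%, against 15.9% of all probe sets), 5 positive and 6 negative. Ank3, which anchors sodium channels at the axon initial segment, had 1.43 by 98476_at (SE 0.17, limma adjusted p = 0.000642) and 1.19 by 98477_s_at. Hcn2, a pacemaker channel, had 1.57 by 94194_s_at (SE 0.23, limma adjusted p = 0.00147). By its other tested probe set, 94195_r_at, it had 0.44 (SE 0.31, limma adjusted p = 0.366). Clcn3, a chloride exchanger of vesicles, had -1.98 by 94463_at and 0.55 by 102786_at, so its probe sets moved apart as well. Within males 12 of 33 passed (limma, 36.4%), against 32.6% of all probe sets. Within females 0 of 33 passed (limma), against 0%, and 3 had an unadjusted p under 0.05, against 4.13%.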

How the data were processed

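The authors deposited 1 table of intensity values, 1 linear signal per probe set and array, for which the submitters' processing notes name MAS5. Its version and settings, the background correction and any detection calls are not given in the sources used here. MAS5 merges a probe set's probes into 1 value and scales the array. Total RNA of each brain was labelled with biotin per the labels' protocols, and the number of arrays limits the precision.

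Probe sets were named from the platform table (10855 with 1 gene, 396 with several), and 66 controls were left out of the tests. All 71 members matched RefSeq (GRCm38.p6). Values were raised to the 10th percentile (3.1), then log2 was taken, and probe sets under the 40th percentile of mean log2 signal were not tested. limma 3.58.1 in R 4.3.3 (lmFit, eBayes with trend, Benjamini-Hochberg over 7453 probe sets) gave every adjusted p. Models were genotype with sex, sex with genotype, and their interaction, from which the differences within each sex were taken. The scripts were tested on simulated data. Over 55 pairs of arrays the correlations across probe sets were 0.863 to 0.969 and 0 pairs were identical. Nothing says whether mice shared a cage or a day of labelling.

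Named for genotype were members past the threshold, the 12 with the smallest p and the 3 with the smallest p per ion. For sex and the interaction these were members past the threshold and the 4 with the smallest p. All probe sets of a named gene and the 3 most and least variable members were named too. Other names follow the family counts and were chosen with their values known. The members and lists were chosen with earlier results of these data known. Alternatives were scaling (quantile, median centring), floors (including log2 of the signal plus 16), filters (including one on the 9 arrays other than the male null), covariates (none, age, number letters, Gapdh ratio), B4 numbers alone, no male null mice, each mouse left out, no trend and an exact permutation test. The list of protein stretches that had been planned was not used here.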

Additional observations from a re-analysis of the deposited data

Results flagged for a closer look

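By the interaction test (female minus male difference), 5 of 37 tested channel probe sets passed (13.5%), against 15.9% of all probe sets. Their genotype differences differed between the sexes, and, as given above, these calls did not all stand without single mice. Values were -2.79 for Kcnab2 102892_at, -1.95 for Scn8a 104504_at, -1.57 for Cacnb2 100757_at, -1.84 for Kcnj9 98332_at and 1.12 for Kcnd2 99339_r_at. All rest on the 2 male null arrays, whose Gapdh ratios of 3′ to 5′ signal were 0.859 and 0.798 against 2.19 to 5.92 on the other 9, and the part of this in the values was not tested. Among 40 groups of 5 or 6 brains, for the 20 probe sets named for genotype, 0 held a brain that stood apart by Dixon's criterion. That criterion looks for a single value apart from the rest of its group. It cannot show a pair of arrays that lie together, such as the 2 male null ones, so nothing follows from the 0.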

How the results depend on the processing

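No paired analysis was possible because the labels give no replicate numbers that genotypes share. The term for the β-actin ratio, the filter on the 9 other arrays and the comparison of female null with all wild-type brains without a covariate were chosen after seeing the data. For genotype, 20 named probe sets gave 548 values under the alternatives, of which 493 kept their direction and their side of the threshold, 11 newly passed and 44 changed sign, and 9 probe sets never changed sign. The 11 include 4 unadjusted exact permutation tests with no covariate (Kcnj11 p = 0.013, Cacnb2 and Cacna2d3 p = 0.0238, Kcnab1 162087_f_at p = 0.0476). An unadjusted p under 0.05 asks less than the adjusted threshold, and by limma 23.1% of all probe sets had one. These 4 were named for small genotype p on the same arrays, so the tests add no separate support. Kcnj11 had also reached the level for testing through the male null arrays. For sex 103 of 106 values and for the interaction 76 of 94 kept their direction and side, with 0 sign changes, and 18 interaction values no longer passed.

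The median of the channel probe sets for genotype was -0.14 after centring on the array median, 0.15 with no filter, -0.059 with the Gapdh ratio and -0.11 with the β-actin ratio as a term. Centring moved the median of all probe sets too, to -0.15 for genotype, 0.17 for sex and 0.20 for the interaction. For sex the median of the members was -0.0016 after centring, -0.019 with the filter at the 60th percentile, -0.092 without the male null mice and -0.29 to -0.13 with 1 mouse left out. For the interaction it was -0.15 after centring, -0.26 with no filter, -0.23 with the filter at the 60th percentile and -0.54 to -0.32 with 1 mouse left out. The number called was 0 to 5 for genotype, 2 to 6 for the interaction and 4 to 13 in males with 1 mouse left out, 3 for the interaction without the variance trend and 7 in males with the filter at the 60th percentile. For genotype, 1 to 877 of all 7453 probe sets were called with 1 mouse left out. Where each group of genotype and sex kept at least 2 brains, 4 to 6 members and 850 to 1406 probe sets passed for the interaction. In males 9 to 12 members and 2096 to 2486 probe sets passed there. The 3 members without the trend (8.11%) stood against 948 of 7453, and the 7 of 20 at the higher filter (35%) against 2001 of 4969. The causes of these changes were not tested, apart from fewer probe sets being tested at the higher filter.

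Over all 37 tested members the genotype sign changed for 17 with the Gapdh ratio, 16 without the male null mice, 9 with the number letters as a block, 9 with B4 numbers alone, 7 with age and 6 after centring. For the 20 named probe sets they were as follows. With the Gapdh ratio as a term, Scn8a had -0.016, Kcnab2 -0.62 (102892_at), Cacna1b -0.39, Scnm1 -0.23, Kcnj9 0.48 (161799_r_at) and -0.56 (98332_at), and Kcnd2 99339_r_at 0.17. With the β-actin ratio, Kcnab2 102892_at had -0.35, Cacna1b -0.35, Scnm1 -0.15, Kcnj9 0.23 (161799_r_at) and -0.45 (98332_at), and Kcnd2 99339_r_at 0.29. Without the male null mice, Kcnab2 102892_at had -0.21, Cacna1b -0.18, Scnm1 -0.15, Scn1a 0.059 (162255_s_at), Kcnj9 0.0099 (161799_r_at) and -0.41 (98332_at), and Kcnd2 99339_r_at 0.27. Without them and with no covariate, Scn8a had -0.00017, Kcnj4 -0.067, Cacna1b -0.21, Scn1a 0.044 (94201_at) and Kcnj9 98332_at -0.67. Kcnab2 162182_f_at had -0.26 with age, -0.13 after centring, -0.0501 with B4 numbers alone, -0.46 with the β-actin and -0.48 with the Gapdh ratio, -0.12 with the number letters as a block, -0.32 without the male null mice, -0.0299 without them and with no covariate, and -0.11 to 0.17 with 1 mouse left out. Kcnj9 161799_r_at had 0.21 with age. Scn1a 162255_s_at had 0.011 after quantile normalization, and Scn1a 94201_at 0.011 there, 0.0194 with no covariate, in limma and in the permutation test alike, and -0.066 to 0.0605 with 1 mouse left out. Signals near the floor of 3.1 limit what can be said of the dim members.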

Other observations

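Of the 34 members too dim to test, 6 (17.6%) had both male null brains above all others. This was so for 8.37% of all probe sets too dim to test. The 4 potassium channel genes among the 6 are given here. Kcnab3, another β subunit of Kcna channels, ran from 6.0 to 32.1 in wild-type brains and was 119.8, 99.0, 34.8, 37.1 and 8.2 in null 1 to null 5, so that 4 of 5 null brains lay above the wild-type range. Kcnc1, a fast delayed rectifier, was 47.8, 36.7, 32.3, 24.6 and 8.5 in null brains against 12.8 to 28.7. Kcna6, a pore of the Kcna family, was 32.8, 52.8, 9.1, 7.8 and 2.1 in null brains against 1.5 to 10.3. Kcnd1, an A-type pore on the X chromosome, was 34.2, 22.6, 3.7, 3.2 and 4.5 against 2.5 to 6.1. For Kcna6 and Kcnd1 the male null brains alone left the wild-type range upward.

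Without the signal filter the interaction passed for 5 members (7.04%, against 7.49% of all probe sets). Of these Kcnd1 and the leak channel Kcnk3 had not been tested before (limma adjusted p = 0.0104 and 0.0403). Both female wild-type brains were under the floor of 3.1 for Kcnd1 (2.6 and 2.5) and 1 of them for Kcnk3 (2.1 and 4.0), so the sizes of these interactions depend on the floor and are not given. In males Kcnd1 (2.34, limma adjusted p = 0.000396), Scn9a and Kcna6 passed among the dim members, where 16.9% of all members and 18% of all probe sets did. Scn9a was 11.6 and 12.9 in male null brains against 1.5 to 4.7 in male wild-type brains, and Kcna6 32.8 and 52.8 against 1.5 to 6.9, with male wild-type brains under the floor for both. Scn3a, the sodium channel of the embryonic brain, was 0.7 to 1.4 in all 5 null brains, under the floor, and 0.9 to 13.0 in wild-type brains, with 4 of 6 above the floor. Its difference did not pass (limma adjusted p = 0.238 without the filter). Kcne1, an accessory subunit, was 27.6, 9.4, 5.8, 18.1 and 27.6 in null brains against 4.4 to 8.5, with all but null 3 above the wild-type range (1.25, limma adjusted p = 0.231 without the filter).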
